A study of Mus musculus with 12 samples.

Results

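The Notch pathway was followed through 10 genes across 6 groups of sorted mouse cells: the receptors Notch1 and Notch4, the ligands Dll4, Jag1 and Jag2, the DNA-binding partner Rbpj, and the target genes Hes1, Hey1, Hey2 and Nrarp. The genes were chosen by name, with earlier results of these data known. They are 10 of the 35976 gene names in each library, and each of the 10 occurred once. The cells were A2lox.cre mouse embryonic stem cells carrying a doxycycline-inducible RUNX1-EVI1 fusion, a leukaemia-associated protein that joins the blood transcription factor RUNX1 to the zinc finger protein EVI1. Embryoid bodies were dispersed after 3.25 days, FLK1+ cells were cultured for 1 day, and 0.5 µg/ml doxycycline was then present for 18 hours (PlusDox) or left out (NoDox). Sorting then gave 2 populations of hemogenic endothelium, labelled 1 and 2 (HE1 and HE2), and hematopoietic progenitors (HP). There were PlusDox and NoDox groups of each population, with 2 biological replicates apiece. All 6 groups carried the construct, in cells expanded from individual colonies. The labels name neither a line without the construct treated with doxycycline nor how many colonies were used, so the fusion and doxycycline itself cannot be told apart. Further detail on the replicates is not in the labels, and the p-values measure the spread between them.

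Notch signalling passes between touching cells: a ligand of the Delta or Jagged family on one cell binds a Notch receptor on its neighbour, the receptor is cut within the membrane, and its intracellular part enters the nucleus, joins the DNA-binding protein RBPJ and switches on target genes. Among these targets are the Hes and Hey genes, which encode transcriptional repressors, and Nrarp, which encodes a feedback inhibitor of the intracellular domain. In embryonic blood vessels Dll4, Jag1 and Notch1 are known for arterial identity, and Notch1 is required for blood stem cells to arise from hemogenic endothelium in the mouse embryo. Jagged1 has a known part in the same step in the mouse aorta.

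Each library gave 1 FPKM value per gene name (fragments normalised to transcript length and library size), after values of 2 to 4 repeated names per library were summed. From 11461 to 12174 genes stood at 1 FPKM or more. Correlations between replicates over genes ran from 0.973 to 0.983. In 5 libraries the gene Lars2 was listed at 10224 to 19970 FPKM, against 24.0 to 224 FPKM in the other 7. The 5 were replicate 2 of PlusDox HE1, HE2 and HP and of NoDox HP, and replicate 1 of NoDox HE1. For most members differences are therefore also given within these classes in HE1 and HP, where both classes held both conditions. Each such difference sets 1 PlusDox library against 1 NoDox library. Mouse Mecom, which encodes EVI1, was listed at 5.18 and 5.51 FPKM in PlusDox HP against 0.194 and 0.205 FPKM in NoDox HP, at 18.4 and 20.2 FPKM in PlusDox HE2 against 6.08 and 13.9 FPKM in NoDox HE2, and its libraries overlapped in HE1. Endothelial markers (Cdh5, Pecam1, Kdr and 5 others) summed to 1662 to 1932 FPKM in PlusDox HE1 and 1534 to 2090 FPKM in NoDox HE1, while the 10 blood markers summed to 37.0 to 73.6 FPKM in PlusDox HE1 and 78.8 to 106 FPKM in NoDox HE1. In HP the endothelial sums were 298 to 394 FPKM in PlusDox and 163 to 186 FPKM in NoDox, and the blood sums were 459 to 658 FPKM in PlusDox and 478 to 540 FPKM in NoDox. HE2 had 257 to 407 FPKM of blood markers in PlusDox and 298 to 397 FPKM in NoDox beside its endothelial markers. Single blood markers differed in opposite directions under that sum: Coro1a was listed at 55.1 and 45.7 FPKM in PlusDox HE2 against 3.70 and 6.72 FPKM in NoDox HE2, Ptprc at 8.43 and 14.8 FPKM in PlusDox HE2 against 0.590 and 1.17 FPKM in NoDox HE2, and Spi1 and Spn were also higher in both PlusDox HE2 libraries. Kit stood at 47.8 and 33.0 FPKM in PlusDox HE2 against 66.3 and 74.2 FPKM in NoDox HE2, Myb was also lower in both PlusDox HE2 libraries, and the libraries of Itga2b, Gfi1, Gfi1b and Runx1 overlapped. Cardiac markers stayed at or under 3.54 FPKM in sum and embryonic stem cell markers at or under 1.28 FPKM. Mesenchymal and smooth muscle markers summed to 246 to 320 FPKM in PlusDox HE1 against 131 to 208 FPKM in NoDox HE1. Their part in any result below was not tested.

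Without doxycycline, receptor and ligand transcripts were highest in HE1 and lowest in HP for every gene except Jag1, and Rbpj stayed level throughout. With doxycycline the 3 ligands and the targets Hey1 and Hey2 were higher in HE2, Dll4 and Jag1 were higher in HE1, and no member passed the test in HP. All 10 members passed the filter of 1 FPKM in at least 2 libraries. Of these, 2 were called higher with doxycycline in HE1, where 0.961% of 13316 tested genes were called higher, 5 in HE2, where 3.82% were, and 0 in HP, where 0.601% were. In HP, 4 members and 1250 genes had an unadjusted limma p below 0.05. No member was called lower, where 0.406%, 2.24% and 0.233% of tested genes were in HE1, HE2 and HP. The HP median below includes fitted values of Dll4 and Hey2, which had libraries listed at 0. The median log2 fold change of the members was 0.67 in HE1, 1.05 in HE2 and 0.45 in HP, against −0.067, −0.046 and −0.0028 for all tested genes. Since earlier results of these data were known when the members were chosen, these counts and medians describe this list only. Calls are adjusted p below 0.05 with limma over all tested genes, and every fold change is a difference of log2(FPKM + 1) ± SE, which understates changes of genes near 0 FPKM. Under 7 other settings of the fit, the HE2 call of Jag1 was the only one of these 7 calls that held under each: with no filter on low values the HE1 calls of Dll4 and Jag1 and the HE2 calls of Dll4, Jag2, Hey1 and Hey2 were lost, with limma adjusted p of 0.0508 to 0.191. With a pseudocount of 0.1 the HE1 calls of Dll4 and Jag1 and the HE2 calls of Hey1 and Hey2 were lost, and with a term for the Lars2 class the HE1 call of Dll4 was. Other members gained calls under some of the same settings: in HE1 Hes1 and Jag2 each passed under 3 of the 7 and Hey1 under 4, in HE2 Hes1 under 4 and Notch1 under 2, and in HP Notch1 under 5, Hes1 under 3 and Jag2 under 2.

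**Figure D1:**
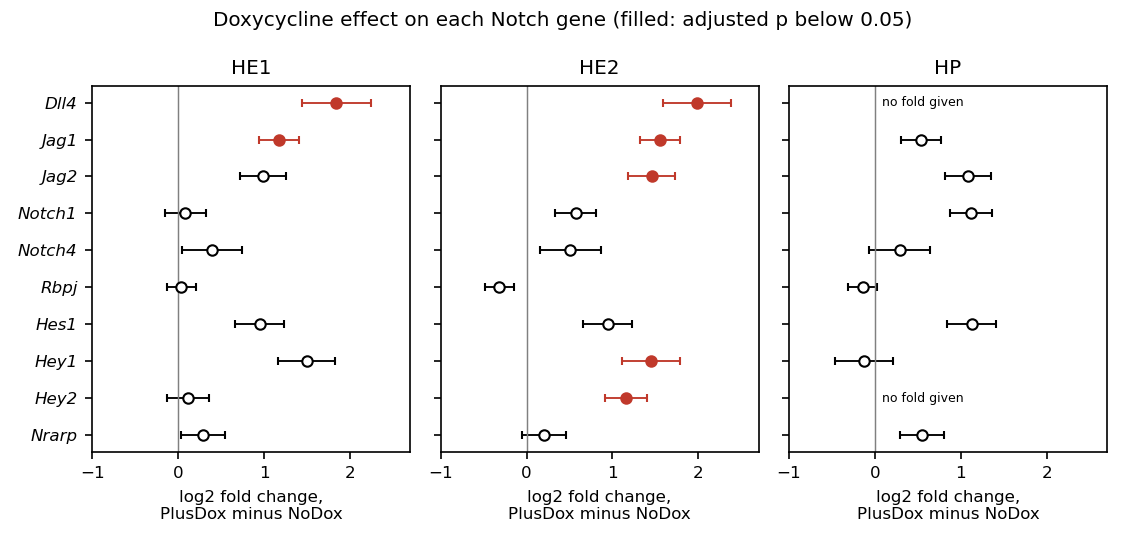
Log2 fold change with doxycycline (PlusDox minus NoDox, on log2(FPKM + 1), horizontal axis) of the 10 Notch genes in HE1, HE2 and HP, with bars of 1 standard error from limma and filled points for adjusted p below 0.05. Points of Dll4 and Hey2 in HP are left out because libraries were listed at 0. The filled points are Dll4 and Jag1 in HE1, and Dll4, Jag1, Jag2, Hey1 and Hey2 in HE2.

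All 3 ligands rose with doxycycline in HE2, and Dll4 and Jag1 also in HE1. Dll4, the Delta-like ligand of arteries and sprouting vessels (chromosome 2, 119325784 to 119335666, plus strand, build GRCm38), was listed at 23.3 and 13.5 FPKM in PlusDox HE1 against 2.93 and 5.98 FPKM in NoDox HE1. In HE2 it stood at 9.23 and 7.34 FPKM with doxycycline against 0.482 and 2.66 FPKM without. The 2 PlusDox libraries were above both NoDox libraries in each population, and the spread was wide in NoDox HE2. Dll4 rose by 1.84 ± 0.40 in HE1 (limma adjusted p = 0.0469) and by 1.99 ± 0.40 in HE2 (adjusted p = 0.0137). The HE1 call was close to the threshold: it held without NoDox HE2 replicate 1 or 2 and was lost in the other 10 fits that left out 1 library (log2 fold change 1.43 to 2.25, limma adjusted p = 0.0512 to 0.475). In HE2 it was lost without PlusDox HE2 replicate 1, PlusDox HE2 replicate 2 or NoDox HE2 replicate 1 (1.33 to 2.13, limma adjusted p = 0.0545 to 0.122). Within the low and high Lars2 classes the HE1 difference was 1.80 and 1.88. In HP, Dll4 was listed at 0.222 and 0.355 FPKM with doxycycline and at 0 in both NoDox libraries, so no fold is given. The ordered means were 18.4 FPKM in PlusDox HE1, 8.28 FPKM in PlusDox HE2, 4.46 FPKM in NoDox HE1, 1.57 FPKM in NoDox HE2, 0.289 FPKM in PlusDox HP and 0 FPKM in NoDox HP, with no overlap between neighbours.

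Jag1, a Jagged ligand of endothelium (chromosome 2, 137081451 to 137116520, minus strand), was listed at 17.9 and 17.1 FPKM in PlusDox HE1 against 6.11 and 8.37 FPKM in NoDox HE1. In HE2 the values were 18.0 and 16.8 FPKM in PlusDox and 4.18 and 6.63 FPKM in NoDox, and in HP 14.6 and 10.6 FPKM in PlusDox and 7.68 and 8.94 FPKM in NoDox. PlusDox libraries were above NoDox libraries in all 3 populations, by the narrowest margin in HP. The log2 difference within the low and high Lars2 classes was 1.01 and 1.35 in HE1 and 0.84 and 0.23 in HP. Jag1 rose by 1.18 ± 0.23 in HE1 (limma adjusted p = 0.0301) and by 1.55 ± 0.23 in HE2 (adjusted p = 0.00305), and stood at 0.53 ± 0.23 in HP (adjusted p = 0.491). The HE1 call was lost without any 1 of the 4 HE1 libraries (0.98 to 1.38, limma adjusted p = 0.0582 to 0.353). The HE2 call of Jag1 held in all 12 fits that left out 1 library (1.27 to 1.83, limma adjusted p = 0.0036 to 0.0397), which no other member's HE2 call did. Unlike the other ligands Jag1 was kept in HP: its 3 PlusDox means, 17.5, 17.4 and 12.6 FPKM in HE1, HE2 and HP, stood above its 3 NoDox means of 7.24, 5.40 and 8.31 FPKM. The HE1 and HE2 libraries overlapped within each condition.

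Jag2, the second Jagged ligand (chromosome 12, 112907803 to 112929812, minus strand), was the most abundant of the 3 ligands in HE1 and HE2. It was listed at 40.1 and 29.0 FPKM in PlusDox HE1 against 14.0 and 19.9 FPKM in NoDox HE1, and at 31.3 and 27.9 FPKM in PlusDox HE2 against 7.88 and 13.0 FPKM in NoDox HE2. In HP the values were 4.91 and 3.45 FPKM in PlusDox and 1.71 and 1.16 FPKM in NoDox. PlusDox libraries were above NoDox libraries in each population. Jag2 rose by 1.46 ± 0.27 in HE2 (limma adjusted p = 0.00982). It stood at 0.99 ± 0.27 in HE1 (adjusted p = 0.125) and 1.08 ± 0.27 in HP (adjusted p = 0.105), and within the Lars2 classes at 0.98 and 1.00 in HE1 and 1.13 and 1.04 in HP. The HE2 call was lost without NoDox HE2 replicate 1 (1.13, limma adjusted p = 0.108).

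Promoters are shown for the members called in HE2 that have an entry in the RefSeq table for GRCm38.p6, since each was called higher with doxycycline there; 8 of the 10 members had an entry, with 2 start sites for Rbpj, and Hes1 and Hey1 had none. Each window holds 250 bases before and 50 bases after a listed start site, 5′ to 3′ on the gene's own strand. Capitals mark matches to TGGGAA, the core of the RBPJ site, or to its reverse complement. The windows are chr2:119325534-119325833 (plus strand) for Dll4, chr2:137116471-137116770 (minus) for Jag1, chr12:112929446-112929745 (minus) for Jag2 and chr10:30842734-30843033 (minus) for Hey2.
Dll4: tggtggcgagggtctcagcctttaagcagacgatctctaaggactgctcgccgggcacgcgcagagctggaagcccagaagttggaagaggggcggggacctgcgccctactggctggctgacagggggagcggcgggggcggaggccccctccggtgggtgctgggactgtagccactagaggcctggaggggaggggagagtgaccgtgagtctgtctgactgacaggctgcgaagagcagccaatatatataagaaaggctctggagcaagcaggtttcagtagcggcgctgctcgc
Jag1: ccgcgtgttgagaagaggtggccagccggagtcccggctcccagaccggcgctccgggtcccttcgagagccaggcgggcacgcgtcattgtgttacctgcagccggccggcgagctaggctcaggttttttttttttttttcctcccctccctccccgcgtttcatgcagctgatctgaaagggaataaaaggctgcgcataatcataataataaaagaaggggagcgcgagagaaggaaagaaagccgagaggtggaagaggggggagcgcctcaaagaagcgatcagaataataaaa
Jag2: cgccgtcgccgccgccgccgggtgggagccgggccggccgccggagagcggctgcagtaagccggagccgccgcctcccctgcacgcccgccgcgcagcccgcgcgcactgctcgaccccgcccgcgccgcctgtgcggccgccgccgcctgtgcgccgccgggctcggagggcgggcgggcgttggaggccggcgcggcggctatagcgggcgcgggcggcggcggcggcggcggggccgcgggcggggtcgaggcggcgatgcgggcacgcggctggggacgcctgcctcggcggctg
Hey2: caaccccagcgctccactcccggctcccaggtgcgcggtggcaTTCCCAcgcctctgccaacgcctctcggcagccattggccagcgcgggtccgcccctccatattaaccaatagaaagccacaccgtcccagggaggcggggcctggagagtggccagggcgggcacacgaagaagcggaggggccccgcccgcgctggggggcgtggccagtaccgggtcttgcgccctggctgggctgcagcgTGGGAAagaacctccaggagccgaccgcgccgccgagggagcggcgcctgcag
The Hey2 window held TGGGAA at −3 on the gene's strand and its reverse complement at −207, counted from the start site to the first base of the match. The Dll4, Jag1 and Jag2 windows held no TGGGAA on either strand. The Jag2 window lies wholly within the gene span given above (112907803 to 112929812), so bases before its outermost start were not searched. Among the 9 member windows 3 held TGGGAA, those of Hey2 and both of Rbpj, and 25.6% of all 32851 windows in the table did. The Rbpj windows overlap, and the match at −65 in one is the same site as the match at −205 in the other. CACGTG, the E-box bound by Hes and Hey proteins, was found only in the Nrarp window, at −108, and in 7.15% of all windows. TGTGGT, the core of the RUNX site, and GATAAG, part of the EVI1 and GATA sites, were in 0 member windows and in 16.8% and 7.44% of all windows. The motifs were searched on both strands, and a match or its absence describes these letters in these windows only.

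**Figure D2:**
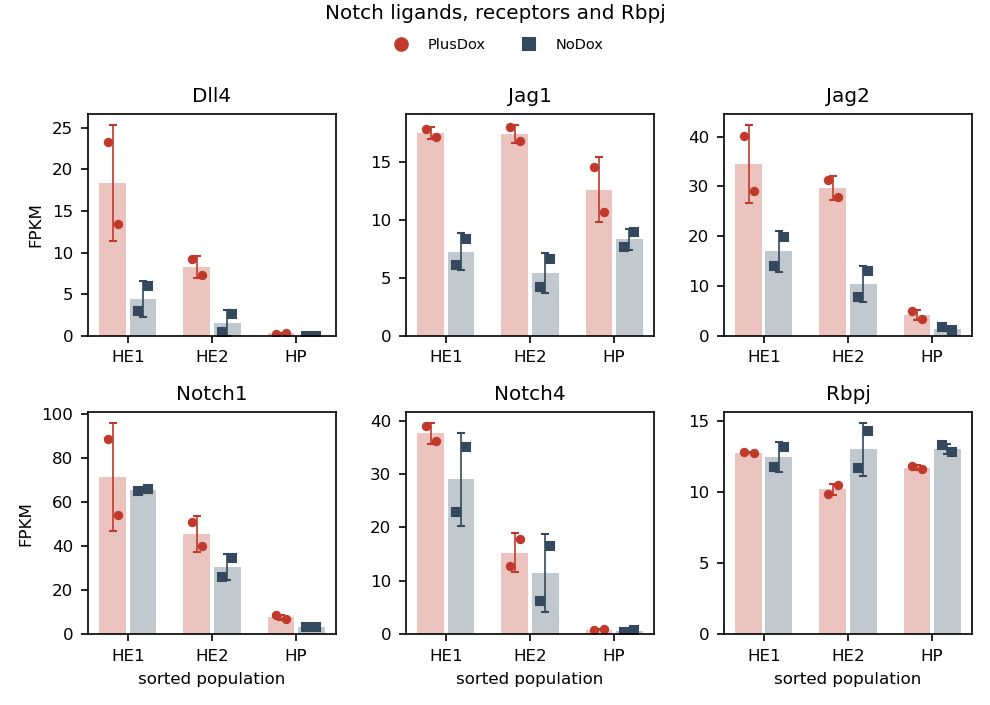
FPKM (vertical axis, linear from 0) of the ligands Dll4, Jag1 and Jag2, the receptors Notch1 and Notch4, and Rbpj in HE1, HE2 and HP. Points are the 2 libraries of each group (PlusDox circles, NoDox squares), bars their mean and whiskers 1 SD. PlusDox libraries lie above NoDox libraries for the 3 ligands in each population, for Notch1 in HE2 and HP and for Notch4 in HE1 and HP. Rbpj lies between 9.91 and 14.3 FPKM in every library, with PlusDox below NoDox in HE2 and HP.

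The sum of the 3 ligands was 70.4 ± 15.3 FPKM in PlusDox HE1 and 28.7 ± 7.90 FPKM in NoDox HE1 (SD, n = 2 per group here and below). In HE2 it was 55.3 ± 4.54 FPKM in PlusDox and 17.4 ± 6.87 FPKM in NoDox, and in HP 17.1 ± 3.71 FPKM in PlusDox and 9.75 ± 0.506 FPKM in NoDox. The share of Dll4 in that sum was 25.7% ± 4.32 in PlusDox HE1 against 15.1% ± 3.36 in NoDox HE1, and 14.9% ± 1.19 in PlusDox HE2 against 7.90% ± 5.74 in NoDox HE2. Jag2 made up the largest share in HE1 and HE2, at 49.0% ± 0.445 and 53.5% ± 0.0389 in PlusDox and 59.4% ± 1.92 and 60.6% ± 3.24 in NoDox. In HP, Jag1 made up 73.8% ± 0.221 in PlusDox and 85.1% ± 4.73 in NoDox, so that the progenitors' ligand transcripts were mostly Jag1 in both conditions.

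**Figure D3:**
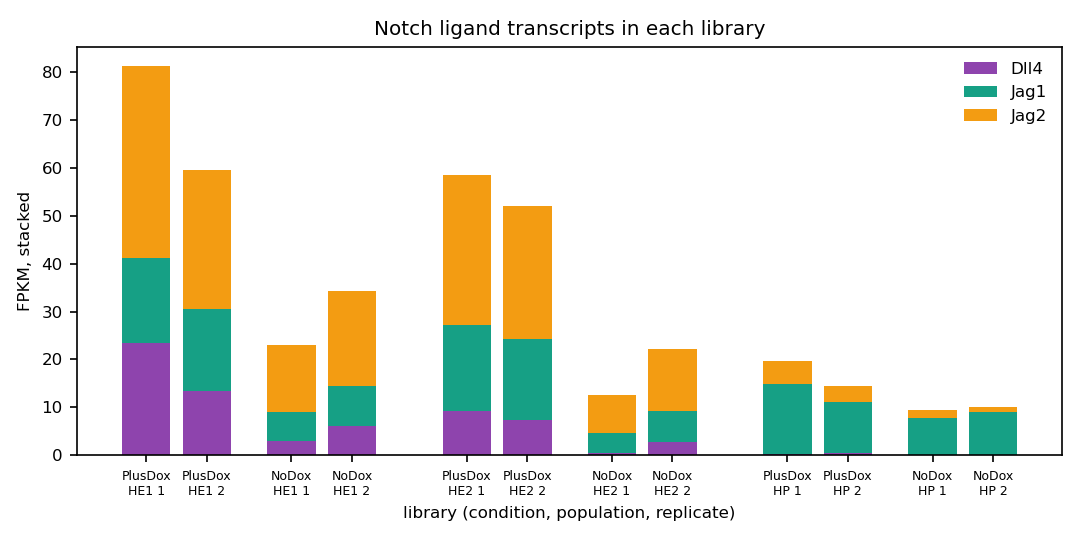
FPKM of Dll4, Jag1 and Jag2 stacked (vertical axis) in each of the 12 libraries (horizontal axis, by population, condition and replicate). PlusDox stacks are taller than NoDox stacks in each population, and Jag1 fills most of the stack in HP.

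Neither receptor passed the test for doxycycline in any population, although Notch1 came near it in HP and passed there under some other settings. Notch1, the receptor needed for definitive blood formation in the mouse (chromosome 2, 26457902 to 26503822, minus strand), had the highest mean of the members in HE1 and HE2. It was listed at 88.7 and 54.1 FPKM in PlusDox HE1, values on either side of the 65.1 and 65.7 FPKM of NoDox HE1. In HE2 it stood at 51.1 and 39.8 FPKM in PlusDox and 26.1 and 34.4 FPKM in NoDox, and in HP at 8.51 and 6.90 FPKM in PlusDox and 2.99 and 3.001 FPKM in NoDox, without overlap in either. Its log2 differences were 0.083 ± 0.24 in HE1 (limma adjusted p = 0.985), 0.57 ± 0.24 in HE2 (adjusted p = 0.184) and 1.12 ± 0.24 in HP (adjusted p = 0.0602). The HP value passed without PlusDox HE1 replicate 1 or 2 (1.12, limma adjusted p = 0.0316) and under 5 of 7 other settings of the fit (limma adjusted p = 0.0178 to 0.144 over the 7). The HE2 value passed under 2 of them (0.0406 to 0.314), and the HE1 value was −0.27 without PlusDox HE1 replicate 1. Within the low and high Lars2 classes the HP difference was 1.25 and 0.98, and the HE1 difference was 0.43 and −0.26.

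Notch4, a receptor largely restricted to endothelium (chromosome 17, 34564286 to 34588543, plus strand), was listed at 39.02 and 36.3 FPKM in PlusDox HE1 and 22.9 and 35.2 FPKM in NoDox HE1. Values were 12.7 and 17.9 FPKM in PlusDox HE2 and 6.23 and 16.6 FPKM in NoDox HE2, and 0.783 and 0.861 FPKM in PlusDox HP against 0.323 and 0.678 FPKM in NoDox HP. The differences of 0.39 ± 0.35, 0.51 ± 0.35 and 0.29 ± 0.35 in HE1, HE2 and HP had limma adjusted p of 0.903, 0.43 and 0.968. The HE2 value rested on NoDox HE2, whose replicates lay far apart: it was 1.15 (limma adjusted p = 0.0484) without replicate 2 and −0.13 (adjusted p = 0.935) without replicate 1. The ratio of Notch1 to Notch4 FPKM was 1.88 ± 0.551 in PlusDox HE1 and 2.36 ± 0.691 in NoDox HE1, 3.13 ± 1.27 and 3.13 ± 1.496 in PlusDox and NoDox HE2, and 9.44 ± 2.02 and 6.84 ± 3.42 in PlusDox and NoDox HP. The HE1 and HE2 ratios of PlusDox and NoDox differed by less than their SDs.

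Rbpj, the DNA-binding partner through which the receptors act (chromosome 5, 53555779 to 53657445, plus strand), was listed at 12.8 and 12.8 FPKM in PlusDox HE1 and 11.8 and 13.2 FPKM in NoDox HE1. In HE2 it stood at 9.91 and 10.5 FPKM in PlusDox and 11.7 and 14.3 FPKM in NoDox, and in HP at 11.8 and 11.6 FPKM in PlusDox and 13.3 and 12.8 FPKM in NoDox. Its differences of 0.035 ± 0.17, −0.32 ± 0.17 and −0.14 ± 0.17 in HE1, HE2 and HP had limma adjusted p of 0.993, 0.299 and 0.964, and the HE1 sign changed without NoDox HE1 replicate 1 (−0.044). Its group means ran from 10.2 to 13.1 FPKM, and only PlusDox HE2, the lowest, stood apart from its neighbour in that order.

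Hey1, a repressor downstream of Notch in vessels and heart (chromosome 3, 8663359 to 8667038, minus strand), was listed at 20.8 and 16.9 FPKM in PlusDox HE1 against 4.02 and 8.81 FPKM in NoDox HE1. In HE2 it was listed at 17.9 and 16.9 FPKM in PlusDox and 6.69 and 4.87 FPKM in NoDox. In HP the order was not kept, with 1.96 and 1.55 FPKM in PlusDox between the 3.10 and 1.19 FPKM of NoDox. Hey1 rose by 1.45 ± 0.34 in HE2 (limma adjusted p = 0.028). It stood at 1.49 ± 0.34 in HE1 (adjusted p = 0.0556) and −0.13 ± 0.34 in HP (adjusted p = 0.994). The HE2 call was lost without any 1 of the 4 HE2 libraries (1.26 to 1.65, limma adjusted p = 0.0792 to 0.122). The HE1 value passed without NoDox HE1 replicate 2, NoDox HP replicate 1 or NoDox HP replicate 2 (limma adjusted p = 0.0384 to 0.0409). The HP value was 0.33 without NoDox HP replicate 1. Within the low and high Lars2 classes the HE1 difference was 1.15 and 1.83, and the HP difference was −0.47 and 0.22.

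Hey2, the related repressor known for arterial identity (chromosome 10, 30832359 to 30842783, minus strand), was listed at 5.55 and 5.89 FPKM in PlusDox HE2 against 1.55 and 2.56 FPKM in NoDox HE2. In HE1 the PlusDox values of 8.49 and 5.11 FPKM enclosed the NoDox values of 6.25 and 5.83 FPKM. The log2 difference in HE1 was 0.47 in the low and −0.25 in the high Lars2 class. Hey2 rose by 1.16 ± 0.24 in HE2 (limma adjusted p = 0.0168) and stood at 0.11 ± 0.24 in HE1 (adjusted p = 0.974), or −0.20 without PlusDox HE1 replicate 1. The HE2 call was lost without PlusDox HE2 replicate 1, PlusDox HE2 replicate 2 or NoDox HE2 replicate 1 (0.92 to 1.19, limma adjusted p = 0.0535 to 0.166). In HP, 1 library of each condition was listed at 0 and the others at 0.184 FPKM in PlusDox and 0.0687 FPKM in NoDox, so no fold is given. PlusDox HE2 overlapped with both HE1 groups, and NoDox HE2 stood apart below them.

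Hes1, a repressor that Notch and other pathways induce (chromosome 16, 30065357 to 30067796, plus strand), was listed at 21.2 and 13.6 FPKM in PlusDox HE1 and 6.75 and 10.2 FPKM in NoDox HE1. It was listed at 23.5 and 15.2 FPKM in PlusDox HE2 against 10.2 and 8.57 FPKM in NoDox HE2, and at 11.6 and 8.63 FPKM in PlusDox HP against 4.70 and 3.46 FPKM in NoDox HP. PlusDox libraries were above NoDox libraries each time, and the PlusDox replicates differed by more than the NoDox replicates. The differences of 0.95 ± 0.28, 0.94 ± 0.28 and 1.12 ± 0.28 in HE1, HE2 and HP had limma adjusted p of 0.171, 0.0725 and 0.111. No fit that left out 1 library brought any of them past the threshold, but of the 7 other settings 3 did in HE1, 4 in HE2 and 3 in HP. Over those settings the limma adjusted p of Hes1 ran from 0.015 to 0.333 in HE1, 0.00351 to 0.181 in HE2 and 0.0105 to 0.25 in HP. Within the low and high Lars2 classes the difference was 0.99 and 0.91 in HE1 and 1.14 and 1.11 in HP.

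Nrarp, the feedback inhibitor (chromosome 2, 25180758 to 25183339, plus strand), had the highest FPKM of the 4 targets in HE1 and HE2. It was listed at 32.5 and 37.8 FPKM in PlusDox HE1 against 24.7 and 32.9 FPKM in NoDox HE1, with overlap, and at 30.5 and 35.4 FPKM in PlusDox HE2 against 26.7 and 30.3 FPKM in NoDox HE2. In HP it was listed at 7.84 and 5.74 FPKM in PlusDox and 5.95 and 3.02 FPKM in NoDox, again with overlap. The differences of 0.29 ± 0.26, 0.20 ± 0.26 and 0.55 ± 0.26 in HE1, HE2 and HP had limma adjusted p of 0.903, 0.701 and 0.561. Of the 4 targets, Hey1 and Hey2 were called higher in HE2. All 4 targets together, Nrarp included, summed to 78.2 ± 6.85 FPKM in PlusDox HE1 and 49.7 ± 11.3 FPKM in NoDox HE1. That sum was 75.4 ± 2.82 FPKM in PlusDox HE2 and 45.7 ± 0.792 FPKM in NoDox HE2. In HP it was 18.7 ± 3.98 FPKM in PlusDox and 10.7 ± 4.35 FPKM in NoDox.

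**Figure D4:**
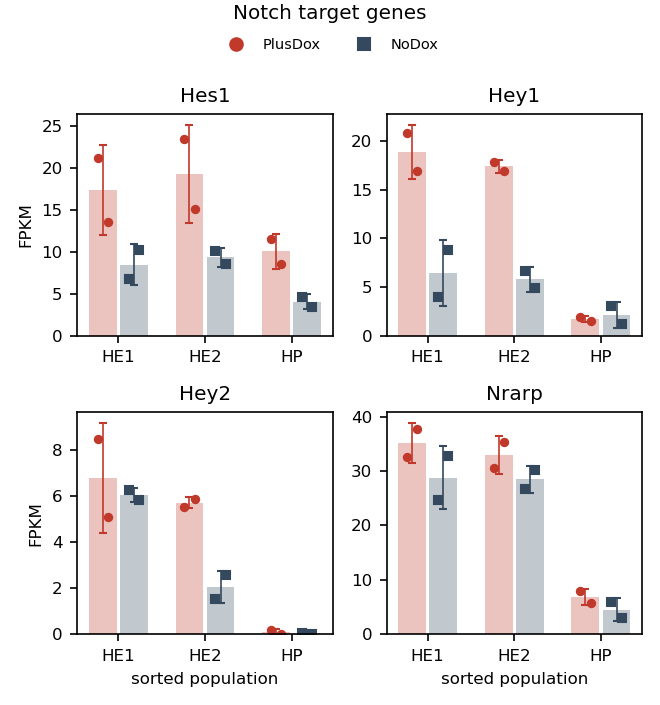
FPKM (vertical axis, linear from 0) of the target genes Hes1, Hey1, Hey2 and Nrarp in HE1, HE2 and HP. Points are the 2 libraries of each group (PlusDox circles, NoDox squares), bars their mean and whiskers 1 SD. PlusDox libraries lie above NoDox libraries for Hey1 in HE1 and HE2, for Hey2 and Nrarp in HE2 and for Hes1 in each population.

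Endothelial and arterial markers moved with these results in HE2. The 8 endothelial markers, none at 0, summed to 1589 to 1660 FPKM in PlusDox HE2 and 874 to 1309 FPKM in NoDox HE2, and the 8 arterial markers to 174 to 212 FPKM in PlusDox HE2 and 66.0 to 131 FPKM in NoDox HE2. Of the arterial markers Gja4, Gja5, Nrp1, Bmx, Cxcr4 and Sox17 were higher in both PlusDox HE2 libraries. How many of all tested genes separated in this way was not counted. Efnb2, at 9.67 and 11.4 FPKM in PlusDox HE2 and 7.27 and 26.4 FPKM in NoDox HE2, and Unc5b overlapped, as did the endothelial markers Kdr, Tek, Tie1 and Emcn. The 4 venous markers went the other way, at 112 to 115 FPKM in PlusDox HE2 and 153 to 220 FPKM in NoDox HE2, and at 158 to 178 FPKM in PlusDox HE1 and 324 to 377 FPKM in NoDox HE1. The arterial sums overlapped in HE1, at 232 to 252 FPKM in PlusDox and 164 to 236 FPKM in NoDox. Gja5, Bmx and Cxcr4 were higher in both PlusDox HE1 libraries, Unc5b was lower and the other arterial markers overlapped. In sorted bulk cells a larger share of cells of a type and more RNA per cell cannot be told apart. As a percentage of the endothelial sum, Dll4 was 0.462 to 0.556 in PlusDox HE2 and 0.0552 to 0.203 in NoDox HE2, and 0.81 to 1.21 in PlusDox HE1 and 0.191 to 0.286 in NoDox HE1. Jag1 was 1.06 to 1.08 in PlusDox HE2 and 0.478 to 0.506 in NoDox HE2, and Jag2 was 1.76 to 1.89 in PlusDox HE2 and 0.902 to 0.99 in NoDox HE2. Hey1 was 1.07 to 1.08 in PlusDox HE2 and 0.372 to 0.765 in NoDox HE2, and Hey2 was 0.335 to 0.371 in PlusDox HE2 and 0.177 to 0.195 in NoDox HE2. On that scale these 5 genes, all called in HE2, were also higher in both PlusDox HE2 libraries. They were picked by their calls in the same libraries, so this is not a separate result. Notch1 overlapped on that scale in HE2 (2.51 to 3.08 in PlusDox and 2.63 to 2.99 in NoDox), and Nrarp lay lower (1.84 to 2.23 in PlusDox and 2.31 to 3.06 in NoDox). Hes1 (0.955 to 1.41 in PlusDox and 0.655 to 1.17 in NoDox) and Notch4 also overlapped. Rbpj lay lower as well (0.597 to 0.66 in PlusDox and 1.1 to 1.34 in NoDox). In HP the endothelial sum itself was higher with doxycycline, at 298 to 394 FPKM in PlusDox and 163 to 186 FPKM in NoDox. As a percentage of it, Jag1 was 3.58 to 3.69 in PlusDox HP and 4.13 to 5.49 in NoDox HP, below rather than above. Hey1 and Rbpj also lay below. Notch1 (2.16 to 2.32 in PlusDox HP and 1.61 to 1.84 in NoDox HP), Jag2 and Hes1 lay above. Dll4 lay above too, with both NoDox HP libraries listed at 0, and Notch4, Hey2 and Nrarp overlapped. In HE1, Notch4, Jag1, Jag2, Hes1, Hey1 and Nrarp lay above as Dll4 did, and Notch1, Hey2 and Rbpj overlapped.

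Whether the response differed between the populations was tested by the difference of the doxycycline effects, and 0 of 10 members passed in any of the 3 comparisons. Over all genes 0.0451% were called for HE2 minus HE1, 0.015% for HP minus HE2 and 0.0375% for HP minus HE1, with limma. At an unadjusted p below 0.05 there were 1, 4 and 3 members, among 892, 875 and 869 genes. Hey1 had the largest differences that involve no library at 0, at −1.62 ± 0.48 for HP minus HE1 (limma adjusted p = 0.368) and −1.58 ± 0.48 for HP minus HE2 (adjusted p = 0.459). Hey2 stood at 1.04 ± 0.34 for HE2 minus HE1 (adjusted p = 0.476), Notch1 at 1.03 ± 0.34 for HP minus HE1 (adjusted p = 0.463) and Jag1 at −1.01 ± 0.33 for HP minus HE2 (adjusted p = 0.536). A call in one population and none in another is therefore not shown to be a difference between them.

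Between HE2 and HP most of the 10 members fell with and without doxycycline. Jag1 and Rbpj passed the test in neither condition, Hes1 did not pass in PlusDox and Dll4 did not pass in NoDox. Of the members, 7 were lower in PlusDox HP than in PlusDox HE2, where 10.9% of tested genes were called lower, and 7 were lower in NoDox HP than in NoDox HE2, where 10.6% were. Notch1 fell in both conditions, with log2 changes of −2.41 ± 0.24 in PlusDox (limma adjusted p = 5.1e-05) and −2.96 ± 0.24 in NoDox (adjusted p = 1.13e-05). The changes of Notch4 were −3.14 ± 0.35 in PlusDox and −2.92 ± 0.35 in NoDox (limma adjusted p = 0.000109 and 0.000149). Those of Jag2 were −2.57 ± 0.27 in PlusDox and −2.202 ± 0.27 in NoDox (limma adjusted p = 7.11e-05 and 0.00017), and those of Nrarp −2.13 ± 0.26 in PlusDox and −2.48 ± 0.26 in NoDox (0.000173 and 5.83e-05). Hey2 changed by −2.63 ± 0.24 in PlusDox and −1.54 ± 0.24 in NoDox (limma adjusted p = 3.1e-05 and 0.000894), values that depend on the added 1 because a library of each HP group was listed at 0. Hey1 changed by −2.74 ± 0.34 in PlusDox (limma adjusted p = 0.000183) and −1.17 ± 0.34 in NoDox (adjusted p = 0.0341). The NoDox call of Hey1 was lost without NoDox HE2 replicate 1, NoDox HE2 replicate 2 or NoDox HP replicate 2 (−1.62 to −0.71 over the fits that left out 1 library, limma adjusted p = 0.0618 to 0.303).

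Dll4 changed by −2.84 ± 0.40 in PlusDox (limma adjusted p = 0.000431), and in NoDox both HP libraries were listed at 0 and it was not called (adjusted p = 0.0582). Hes1 changed by −1.04 ± 0.28 in NoDox (limma adjusted p = 0.0267) and stood at −0.86 ± 0.28 in PlusDox (adjusted p = 0.0602), and its NoDox call was lost without any 1 of the NoDox HE2 and HP libraries (limma adjusted p = 0.0505 to 0.19). Jag1 was not called in either condition, at −0.45 ± 0.23 in PlusDox (limma adjusted p = 0.232) and 0.56 ± 0.23 in NoDox (adjusted p = 0.134), and neither was Rbpj, at 0.19 ± 0.17 in PlusDox and 0.010 ± 0.17 in NoDox. These falls went with lower endothelial markers, which summed to 298 to 394 FPKM in PlusDox HP against 1589 to 1660 FPKM in PlusDox HE2, and to 163 to 186 FPKM in NoDox HP against 874 to 1309 FPKM in NoDox HE2. As a percentage of that sum, Notch1 was 2.16 to 2.32 in PlusDox HP and 2.51 to 3.08 in PlusDox HE2, and Notch4 was 0.199 to 0.289 in PlusDox HP and 0.764 to 1.12 in PlusDox HE2. On that scale Dll4, Jag2, Hey1 and Hey2 were also lower in both PlusDox HP libraries, and Nrarp overlapped (1.93 to 1.99 in PlusDox HP and 1.84 to 2.23 in PlusDox HE2). In NoDox, of the 7 members called lower in HP, Notch1, Notch4 and Hey2 were lower in both HP libraries on that scale. Jag2 overlapped (0.714 to 0.919 in NoDox HP and 0.902 to 0.99 in NoDox HE2), as did Nrarp (1.85 to 3.2 in NoDox HP and 2.31 to 3.06 in NoDox HE2) and Hey1 (0.728 to 1.67 in NoDox HP and 0.372 to 0.765 in NoDox HE2). Hes1 was higher (2.13 to 2.53 in NoDox HP and 0.655 to 1.17 in NoDox HE2).

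Between HE1 and HE2 fewer members were called. In PlusDox only Notch4 was lower in HE2 than in HE1, at −1.27 ± 0.35 (limma adjusted p = 0.0466), where 2.89% of tested genes were called lower. That call held without NoDox HE2 replicate 1 or 2 and was lost in the other 10 fits that left out 1 library (−1.497 to −1.03, limma adjusted p = 0.0524 to 0.249). In NoDox 3 members were lower in HE2, where 4.45% were: Notch1 at −1.10 ± 0.24 (limma adjusted p = 0.015), Notch4 at −1.38 ± 0.35 (adjusted p = 0.03) and Hey2 at −1.22 ± 0.24 (adjusted p = 0.00949). Each was lost without NoDox HE2 replicate 1 and without NoDox HE1 replicate 2, and Notch1 and Hey2 also without NoDox HE1 replicate 1 (limma adjusted p = 0.0533 to 0.28 for the lost calls). The targets Hes1, Hey1 and Nrarp had overlapping libraries in HE2 and HE1 in both conditions. The doxycycline comparisons and these steps use the same 12 libraries, so they are not independent.

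Few other genes of the pathway were called with doxycycline. Of 70 further genes listed, from other receptors to the nuclear complex, 55 passed the filter, and 1 was called higher in HE1, 2 higher and 1 lower in HE2 and 1 higher in HP, where 0.961%, 3.82% and 0.601% of all tested genes were called higher in HE1, HE2 and HP and 2.24% lower in HE2. The medians were −0.044, −0.049 and 0.093, near the −0.067, −0.046 and −0.0028 of all tested genes. Aph1b, a subunit of the gamma-secretase complex that cuts the receptor, was listed at 1.84 and 2.92 FPKM in PlusDox HE1 against 0.175 and 0.485 FPKM in NoDox HE1 and rose by 1.34 ± 0.24 (limma adjusted p = 0.0186). In HE2 it stood at 1.36 and 2.43 FPKM in PlusDox against 0.412 and 0.212 FPKM in NoDox and rose by 1.12 ± 0.24 (adjusted p = 0.0183). Adam10 and Ncstn, which also act in receptor cleavage, were not called. Each Aph1b call was lost without replicate 2 of the PlusDox group or either library of the NoDox group of that population (limma adjusted p = 0.0524 to 0.249).

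Neurl3, a gene of the neuralized family of ubiquitin ligases, was listed at 44.7 and 33.0 FPKM in PlusDox HE2 against 10.5 and 18.1 FPKM in NoDox HE2 and rose by 1.41 ± 0.33 (limma adjusted p = 0.0276). In HP it stood at 27.7 and 14.7 FPKM in PlusDox against 5.93 and 5.96 FPKM in NoDox and rose by 1.62 ± 0.33 (adjusted p = 0.0454). The HE2 call was lost without PlusDox HE2 replicate 1, PlusDox HE2 replicate 2 or NoDox HE2 replicate 1 (limma adjusted p = 0.0686 to 0.238), and the HP call in 8 of 12 fits that left out 1 library, all but those without an HE2 library (0.0522 to 0.278). Maml3, a coactivator of the nuclear complex, was listed at 4.73 and 4.74 FPKM in PlusDox HE2 against 7.72 and 11.1 FPKM in NoDox HE2 and fell (−0.84 ± 0.21, limma adjusted p = 0.0378), a call lost in 8 of 12 such fits, all but those without a PlusDox HE1 or PlusDox HP library (0.0535 to 0.189). The receptors Notch2 and Notch3 were not called in HE1, HE2 or HP. Notch2 was listed at 8.26 and 5.61 FPKM in PlusDox HE2 against 12.3 and 10.2 FPKM in NoDox HE2 (−0.64 ± 0.26, limma adjusted p = 0.18). The 5 tested genes that add sugars to the receptors, among them Lfng, Mfng and Rfng, had a median of 0.77 in HE2, and all 5 missed the threshold. Mfng, which encodes a fringe enzyme, was listed at 29.1 and 32.0 FPKM in PlusDox HE2 against 11.3 and 23.9 FPKM in NoDox HE2 (0.85 ± 0.37, limma adjusted p = 0.205).

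Across the populations Neurl3 rose between HE1 and HE2 in both conditions, by 3.04 ± 0.33 in PlusDox (limma adjusted p = 0.000246) and 1.40 ± 0.33 in NoDox (adjusted p = 0.0191), the NoDox call being lost without NoDox HE1 replicate 1, NoDox HE1 replicate 2 or NoDox HE2 replicate 2 (0.0594 to 0.123). Dtx4, of the deltex family, rose between HE1 and HE2 in NoDox (1.44 ± 0.26, limma adjusted p = 0.00615) and between HE2 and HP in PlusDox (1.40 ± 0.26, adjusted p = 0.00286). Furin, the protease that processes the receptor on its way to the surface, fell between HE1 and HE2 in PlusDox (−1.24 ± 0.22, limma adjusted p = 0.0056) and between HE2 and HP in NoDox (−1.86 ± 0.22, adjusted p = 0.000139). Numb, an inhibitor of Notch, fell between HE2 and HP, with −0.88 ± 0.19 in PlusDox and −1.08 ± 0.19 in NoDox on the log2 scale (limma adjusted p = 0.008 and 0.00213), and the PlusDox call was lost without PlusDox HP replicate 2 (0.0511). The list gave 1 gene higher and 4 lower in PlusDox and 2 higher and 2 lower in NoDox between HE1 and HE2, and 1 higher and 4 lower in PlusDox and 0 higher and 8 lower in NoDox between HE2 and HP. In the same 4 comparisons 5.7%, 5.67%, 5.96% and 5.31% of tested genes were called higher and 2.89%, 4.45%, 10.9% and 10.6% lower.

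The 10 members did not share a single pattern over the 12 libraries. Likeness was measured as the root mean square difference of centred log2(FPKM + 1) profiles, among 9909 genes with a mean of at least 5 FPKM in 1 group, as a description of libraries that share conditions and preparation. Notch1 was most like Arhgap31, Zfp423 and Fstl1 (0.233 to 0.241), with Hey2 (0.483) and Jag2 (0.490) the closest members. Notch4 was most like Amotl1, Mcam and Cttnbp2nl (0.229 to 0.280), with Notch1 the closest member (0.526). Dll4 was most like Tnfrsf23, Stmn2 and Prom1 (0.260 to 0.349), and Jag2 ranked 15 among all genes in its likeness to Dll4 (0.495). Jag2 was most like Snn, Pim3 and Fam43a, with Hey2 as the closest member, ranked 39 (0.442).

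Jag1 was most like Slc35d2, Tapbp and Fam49a (0.211 to 0.223), and its closest member was Hes1 (0.547), ranked 597. Hes1 was most like Ass1, Nab2 and Rilp, and its closest member was Jag1, ranked 712. Hey1 was most like Cyp1a1, Hoxd8 and Fam124b (0.3204 to 0.406), with Jag2 as the closest member (0.565, ranked 62). Hey2 was most like Vsig2, Zfp532 and Prkch, and Nrarp was most like Col18a1, Pdlim1 and Tead2. Rbpj was most like Ralgapb, Ier3ip1 and Ptp4a1 (0.0806 to 0.0888), genes as level as itself, and its own SD over the libraries was 0.133 on the log2 scale, against 0.612 for Jag1 and 1.86 for Notch4.

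Reads of overlapping genes could enter a few of these values. Exons of Notch1 overlap 0610009E02Rik on the opposite strand over 1068 bases and those of Dll4 overlap Gm14207 over 214 bases, and these were listed at 0 to 1.22 FPKM for 0610009E02Rik and 0 to 0.771 FPKM for Gm14207. Gm38287 overlaps exons of Nrarp on the opposite strand over 2051 bases. The libraries were prepared with a stranded kit, and whether strand was used in quantification is not given in the sources used here.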

How the data were processed

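RNA of 12 libraries was sequenced paired-end in a single pool with a stranded total RNA kit, per the labels' protocols. The deposited files, without headers, pair each gene name with an FPKM value; the authors made them with Trimmomatic 0.32, HISAT2 2.1.0 and StringTie 1.3.3 on mm10, per the submitters' processing notes, and FPKM is inferred from the tool and from sums of 468326 to 579055 per library. Which annotation was used, whether strand was counted and how the sorts were gated is not given here. The files give no read counts, so absolute depth is unknown; the smallest steps of low values over 5893 single-transcript genes gave depths of 0.581 to 1.61 relative to the median library.

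Genes at 1 FPKM or more in at least 2 libraries (13316) were fitted with limma 3.58.1 in R 4.3.3 on log2(FPKM + 1), with 6 group means, an intensity trend, 6 residual and 5.83 prior degrees of freedom, and Benjamini-Hochberg adjustment of two-sided p-values in each comparison. The spread is pooled over all 6 groups. The members, the lists of pathway and marker genes, the motifs and the tests were chosen with earlier results of these data known. Named genes were the 10 members, the called genes of the pathway list (at most 4 in each direction for population steps) and the 3 genes nearest to each member; of the list's called genes in the steps some are given as counts only. Gene positions came from RefSeq, as did promoters (GRCm38.p6), while strands, overlapping exons and transcript lengths came from GENCODE for GRCm38. Alternatives were a pseudocount of 0.1, no filter, quantile normalization, median scaling, a replicate block, a term for the Lars2 class (above or below 1000 FPKM), no intensity trend and each library left out; a fit to the 7 libraries low in Lars2 was added after seeing the data. Python 3.11.15 with numpy 2.4.6, pandas 2.3.3 and matplotlib 3.10.9 were used for tables and plots.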

Additional observations from a re-analysis of the deposited data

How the results depend on the processing

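The counts of members called moved with the settings, and the cause was not tested. In HE1 the 2 members called with doxycycline became 0 with a pseudocount of 0.1, 0 with no filter, 5 with quantile normalization, 5 with median scaling, 4 with the Lars2 class term and 0 when fitted to the 7 low-Lars2 libraries alone, which leave 1 residual degree of freedom, and ran from 0 to 2 with each library left out. In HE2 the 5 became 3 with a pseudocount of 0.1, 1 with no filter, 7 with quantile normalization and 7 with median scaling (Notch1 and Hes1 gained), 6 with the class term and 0 in the 7 libraries, and ran from 1 to 5 with each library left out. In HP the 0 became 1 with a pseudocount of 0.1, 1 with quantile normalization, 3 with median scaling, 2 with the replicate block and 3 with the class term, and ran from 0 to 1. For HE2 against HE1 in PlusDox the 1 member became 0 with a pseudocount of 0.1, 0 with no filter, 2 with quantile normalization, 2 with median scaling and 0 in the 7 libraries (0 to 1 with each library left out). In NoDox the 3 became 1, 1, 5, 5 and 0 under the same settings (0 to 4). For HP against HE2 in NoDox the 7 became 4 in the 7 libraries, and in PlusDox the 7 stayed within 5 to 8 under every setting run. Counts over all tested genes in these steps were not taken under the other settings, so these member counts stand without a background. No difference of doxycycline effects had a called member under any setting run. Of the 7 doxycycline calls, that of Jag1 in HE2 held under each planned setting.

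The genes called with doxycycline in HE1, 182, became 97 with a pseudocount of 0.1, 351 with quantile normalization, 307 with median scaling, 459 with the replicate block and 0 in the 7 libraries, and ran from 2 (without NoDox HE1 replicate 1) to 193. In HE2 the 807 became 450 with no filter, 1824 with quantile normalization, 1601 with median scaling, 2296 with the replicate block, 1254 with the class term and 29 with the 7 libraries alone, and ran from 171 (without NoDox HE2 replicate 1) to 879. In HP the 111 became 179 with median scaling, 305 with the replicate block, 175 with the class term and 3 with the 7 libraries alone, and ran from 10 (without NoDox HP replicate 1) to 124. Genes called in HE1 were 149 with no filter and 229 with the class term, and those in HE2 were 606 with a pseudocount of 0.1. For HP they were 92 with a pseudocount of 0.1 and 127 with quantile normalization. The share of HE2 calls that were higher was 63.1%, against 51.6% with quantile normalization, 54.9% with median scaling and 45.6% with the replicate block.

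Replicate numbers are not said to mark a shared culture or day. Differences between replicates correlated at 0.0818 in HE1, 0.489 in HE2 and 0.436 in HP between PlusDox and NoDox, and over all 15 pairs of groups they ran from −0.1 to 0.526, with 12 above 0.1. Since not every pair lay above 0.1 the numbers were not taken as a pairing, although most deviations went together, and the text gives the fits without the block. The pairs not above 0.1 all involved NoDox HE1: 0.0818 with PlusDox HE1, −0.1 with PlusDox HP and −0.00805 with NoDox HP. NoDox HE1 was also the only group whose replicate 1 was high in Lars2, and the part of that class was not tested. With the replicate block, members called were 3 in HE1, 6 in HE2 and 2 in HP, where Notch1 and Hes1 were gained.

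Signs that turned belonged to members that were not called. With each library left out, the doxycycline difference ran from −0.27 to 0.43 for Notch1 in HE1, from −0.20 to 0.43 for Hey2 in HE1, from −0.044 to 0.11 for Rbpj in HE1, from −0.13 to 1.15 for Notch4 in HE2 and from −0.58 to 0.33 for Hey1 in HP. In the 7 libraries low in Lars2 it was −0.014 for Nrarp and −0.042 for Rbpj in HE1, against 0.59 and 0.11 between the HE1 libraries high in Lars2. Of 1460 recomputed fold changes of 73 named or called results, 1209 kept direction and side of the threshold, 212 lost a call, 32 gained one and 7 turned. With 2 libraries a group and no counts, differences of low genes such as Dll4 in HE2 and Hey2 in HP are the least certain.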

Other observations

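Among genes with a mean of at least 1 FPKM in a group, Notch1 lay at percentile 93.0 in PlusDox HE1 and 92.0 in NoDox HE1, and at 37.9 in PlusDox HP and 17.2 in NoDox HP. Jag1 lay at percentile 65.8 in PlusDox HE1 and 37.2 in NoDox HE1, and at 63.4 in PlusDox HE2 and 27.4 in NoDox HE2. Nrarp stayed between percentiles 75.6 and 83.4 in the 4 HE groups and Rbpj between 45.9 and 55.8 in all 6 groups.

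Of 7 other ligands listed, Dll1 and Mfap2 passed the filter. Mfap2, a microfibril protein listed with the ligands, stood at 5.67 and 4.08 FPKM in PlusDox HE1 and 1.91 and 2.49 FPKM in NoDox HE1. It fell between HE1 and HE2 in PlusDox (−1.21 ± 0.28 on the log2 scale, limma adjusted p = 0.0218), a call lost in 3 of the 12 fits that left out 1 library (0.0918 to 0.111). Dll1, a Delta-like ligand, was listed at 1.53 and 1.16 FPKM in PlusDox HE1 and 1.54 and 2.36 FPKM in NoDox HE1, and at 0.0176 and 0 FPKM in PlusDox HP and 0 in both NoDox HP libraries. Between HE1 and HE2 it fell in NoDox (−0.80 ± 0.22 on the log2 scale, limma adjusted p = 0.0394), a call lost in 7 of the 12 fits that left out 1 library (0.051 to 0.334). Hes6, a relative of Hes1, was listed at 15.7 and 12.6 FPKM in PlusDox HE2 and 14.3 and 12.5 FPKM in NoDox HE2, with overlap. The fringe gene Mfng fell between HE2 and HP in PlusDox (−1.25 ± 0.37, limma adjusted p = 0.0389) and in NoDox (−1.75 ± 0.37, adjusted p = 0.00658), and these calls were lost in 5 and 2 of the 12 fits (0.0514 to 0.256).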
